A study of Danio rerio with 6 samples.

Results

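High-Fli1+ cells of Tg(fli1:EGFP) zebrafish were compared with Fli1- cells of the same line over all genes with a mean of 0.5 FPKM or more across the 4 libraries of both populations. FPKM is a gene's number of sequenced fragments scaled by transcript length and by the mapped fragments of the library. This level was reached by 19309 of 29126 genes, the lowest being slc13a3 at a mean of 0.5002 FPKM and the next one below it nlrb5, at 0.4998. The series measured mRNA in 6 libraries, 2 each of Fli1-, Low-Fli1+ and High-Fli1+ cells. Every library, the Fli1- ones included, carries the genotype Tg(fli1:EGFP), and no treatment, age or stage is given in the labels. The labels state neither how the cells were separated nor whether replicates came from separate embryos, so p-values measure the spread between these libraries, which may be technical.

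In Tg(fli1:EGFP) fish, regulatory sequence of fli1a, an ETS transcription factor gene, drives green fluorescent protein in vascular endothelium, in some blood cells and in the neural crest cells of the pharyngeal arches. A bright cell in this line may therefore be a vessel cell or a cell of the head skeleton. Cartilage cells of the head secrete collagen II, IX and XI fibrils and sulfated proteoglycans, which pass through the endoplasmic reticulum and Golgi in large carriers.

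The libraries differed in composition. FPKM summed to 550989 and 609460 in Fli1- and to 449328 and 713052 in High-Fli1+ libraries, and the number of fragments behind them is unknown. The non-coding signal recognition particle RNA Metazoa_SRP took 27.3% of the sum in High-Fli1+ replicate 2, 2.56% in High-Fli1+ replicate 1 and 7.77% and 13.1% in the Fli1- libraries. Between 8451 and 11457 genes were listed at 0 in each of the 4 libraries. Pearson's r between replicates across genes, which are not independent, was 0.923 in Fli1- and 0.890 in High-Fli1+ cells on the log2(FPKM + 1) scale. It was 0.767 in Low-Fli1+ cells, whose libraries also enter the spread behind each p-value.

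The gene behind the reporter followed the labels. Fli1a stood at 1.04 and 5.55 FPKM in Fli1- and 241 and 192 FPKM in High-Fli1+ libraries (log2 fold change 5.89 ± 0.55 (SE), adjusted p = 0.00406). For fli1b, a second copy of the gene, levels were 0 and 0.245 against 7.56 and 8.95 FPKM in Fli1- against High-Fli1+ (adjusted p = 0.0225). Low-Fli1+ libraries lay between the other populations for fli1a, at 66.8 and 52.0 FPKM. For fli1b, Low-Fli1+ replicate 1, at 21.4 FPKM, lay above both High-Fli1+ libraries, and replicate 2, at 8.25 FPKM, lay between them. Calls of fli1a and fli1b were each lost without at least 1 of the 4 compared libraries (adjusted p up to 0.165, for fli1b).

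Marker lists of the cell types such a population could hold differed in their summed level. Cartilage matrix genes summed to 205 and 292 FPKM for Fli1- and 15163 and 12908 FPKM for High-Fli1+ libraries, arch mesenchyme factors to 101 and 86.1 FPKM for Fli1- and 728 and 643 FPKM for High-Fli1+ libraries and endothelial core genes to 23.3 and 18.5 FPKM for Fli1- and 171 and 189 FPKM for High-Fli1+ libraries. By this sum High-Fli1+ libraries held far more cartilage matrix than endothelial transcript, although levels of different genes also reflect how strongly each is transcribed in its own cell type. Neutrophil genes summed to 89.3 and 95.1 FPKM for Fli1- and 349.7 and 399 FPKM for High-Fli1+ libraries. Npsn, mpx, lyz and coro1a, the largest changes of this list, stood at no more than 3.50 FPKM in Fli1- libraries. Other members of the list therefore made up most of its Fli1- sum. On log2(FPKM + 1) these genes rose from 9.33-fold, for coro1a, to 14.9-fold, for npsn. Erythroid genes, in contrast, summed to 41493 and 32251 FPKM for Fli1- and 124 and 118 FPKM for High-Fli1+ libraries, and neuronal genes to 2364 and 1930.0 FPKM for Fli1- and 219 and 87.3 FPKM for High-Fli1+ libraries. Macrophage genes were near the floor in both populations, at sums of 15.5 and 17.8 FPKM for Fli1- and 19.0 and 18.4 FPKM for High-Fli1+ libraries, with 6 of 14 listed at 0 in both High-Fli1+ libraries. The neutrophil genes npsn, mpx and coro1a stood above their High-Fli1+ levels in both Low-Fli1+ libraries. Low-Fli1+ against High-Fli1+ levels were 206 and 377 against 43.4 and 45.4 FPKM for npsn and 214 and 251 against 26.1 and 18.5 FPKM for mpx. They were 124 and 121 against 38.1 and 36.9 FPKM for coro1a, while lyz overlapped, at 50.5 and 168 against 28.6 and 66.0 FPKM. In bulk libraries, fewer cells of a type and less RNA per cell cannot be told apart. How far these cell types contribute to the gene groups below was not tested.

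Between the 2 populations 3508 genes were called, 1142 higher and 2366 lower in High-Fli1+ cells. These are 18.2% of the genes tested, 5.91% higher and 12.3% lower, and the counts of every list below are read beside these shares. A call is an adjusted p under 0.05 in limma, fitted to log2(FPKM + 1) of all 6 libraries, and every fold change is on that scale, which understates the change of low genes. Most of the higher genes, 756, lay between 2-fold and 8-fold, 364 between 8-fold and 64-fold and 13 at 64-fold or more. Lower genes were distributed in the same classes as 1436, 886 and 11. Of the lower genes, 470 were listed at 0 in both High-Fli1+ libraries. Of the higher genes, 61 were listed at 0 in both Fli1- libraries. Over all genes, High-Fli1+ libraries also listed more at 0, 11054 and 11457 against 8683 and 8451 in Fli1-. Genes called higher had a median of 31.6 FPKM in High-Fli1+ cells, and genes called lower one of 18.5 FPKM in Fli1- cells. The genes called higher held 2.39% and 2.67% of the FPKM sum, Metazoa_SRP left out, in Fli1- libraries and 21.0% and 16.3% in High-Fli1+ libraries. The genes called lower held 26.2% and 21.6% of it in the Fli1- pair, against 3.55% and 2.64% in the High-Fli1+ pair. The direction of both contrasts follows from choosing these genes in the same libraries.

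The split between the directions depended on scaling. Of all calls 32.6% were higher, against 48.3% after quantile normalization, which gave 1597 higher and 1710 lower. Over all genes tested, the median log2 change was -0.37, and it was -0.01 after quantile normalization, -0.11 after median-ratio scaling and -0.27 with equal sums without Metazoa_SRP, so list medians are read against it. Counts also fell when 1 of the 4 compared libraries was left out, to 312 higher and 912 lower without Fli1- replicate 1, 389 and 973 without Fli1- replicate 2, 364 and 699 without High-Fli1+ replicate 1 and 392 and 412 without High-Fli1+ replicate 2. They were larger without Low-Fli1+ replicate 1, at 1666 and 3436, and without Low-Fli1+ replicate 2, at 1656 and 3461. Just inside the threshold was nedd9, at 11.8 and 13.8 against 27.5 and 28.1 FPKM in Fli1- against High-Fli1+ (adjusted p = 0.0499), and just outside sall3b, at 6.88 and 5.70 against 0.850 and 0.0726 FPKM (adjusted p = 0.05003).

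**Figure D1:**
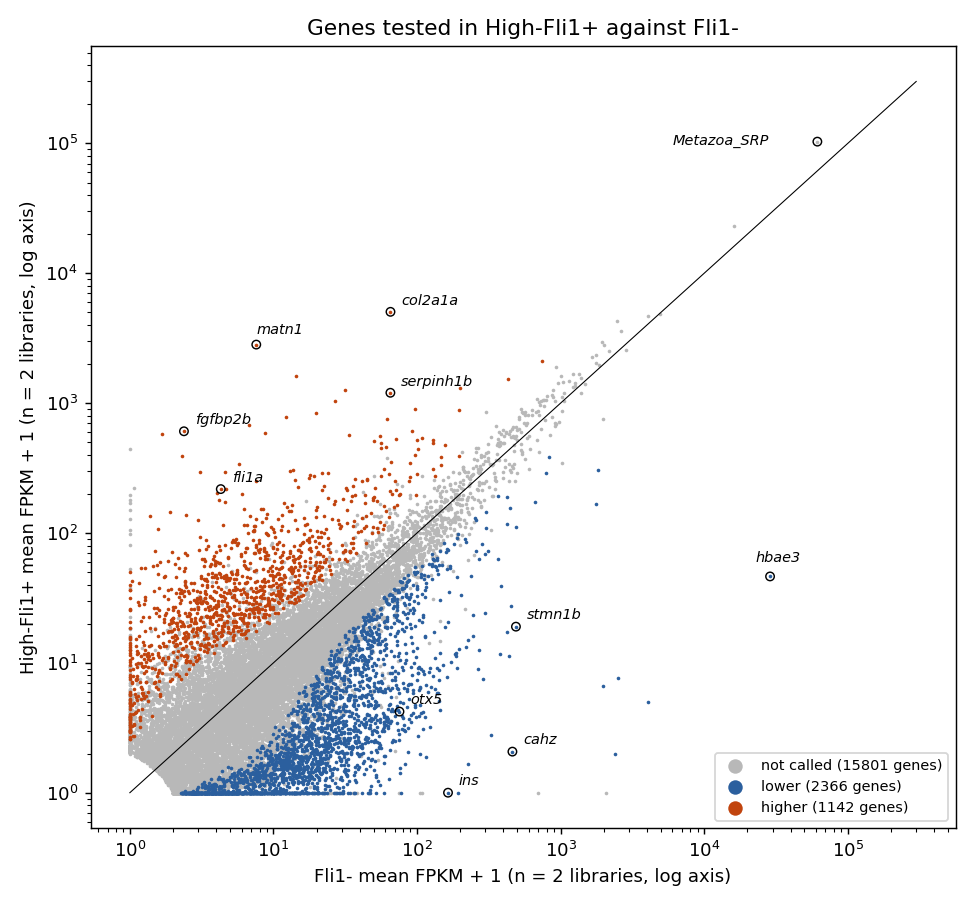
Mean FPKM + 1 of each of the 19309 genes in Fli1- (x axis, log) and High-Fli1+ (y axis, log) libraries, 2 per population, coloured by call, with the line of equal level. Of the genes named, matn1, col2a1a, fgfbp2b, serpinh1b and fli1a lie above the line and hbae3, cahz, ins, stmn1b and otx5 below it, while Metazoa_SRP, the most abundant, was not called.

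The genes with the smallest p among the higher calls were mostly cartilage collagens and other matrix proteins. Among the 12 taken by p, 7 encode collagens II, IX, XI and XXVII. Col9a2, a chain of the collagen IX that coats cartilage fibrils, stood at 11.7 and 10.8 FPKM in Fli1- and 796 and 764 FPKM in High-Fli1+ libraries (log2 fold change 5.999 ± 0.20 (SE), adjusted p = 0.000772). Col2a1b, the second collagen II gene, stood at 20.4 and 31.6 FPKM in Fli1- and 1101 and 961 FPKM in High-Fli1+ libraries (log2 fold change 5.29 ± 0.29 (SE), adjusted p = 0.00243). Col27a1a, a fibrillar collagen of cartilage and notochord sheath, stood at 2.67 and 4.70 FPKM in Fli1- and 242 and 194 FPKM in High-Fli1+ libraries (log2 fold change 5.57 ± 0.32 (SE), adjusted p = 0.00243). That the populations did not overlap was required by the rule that chose these genes. The other collagens of the 12 were col9a1a, col11a2, col2a1a and col9a3, with log2 fold changes from 5.92 to 6.82, and acana, an aggrecan, reached 7.43.

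The remaining 4 of these 12 genes encode no collagen or aggrecan. Lect1, which encodes chondromodulin, an anti-angiogenic glycoprotein of avascular cartilage, stood at 2.30 and 4.87 FPKM in Fli1- and 279 and 309 FPKM in High-Fli1+ libraries (log2 fold change 6.06 ± 0.32 (SE), adjusted p = 0.00243). Rcn3, a calcium-binding protein of the secretory pathway, stood at 13.2 and 12.2 FPKM in Fli1- and 333 and 279.6 FPKM in High-Fli1+ libraries (log2 fold change 4.49 ± 0.26 (SE), adjusted p = 0.00243). F3b, a zebrafish tissue factor gene, whose product starts blood clotting, stood at 10.8 and 12.04 FPKM in Fli1- and 152 and 162 FPKM in High-Fli1+ libraries (log2 fold change 3.67 ± 0.21 (SE), adjusted p = 0.00243). Thbs1b, a thrombospondin of the matrix, rose 23.2-fold. Both Low-Fli1+ libraries lay between the populations for f3b, at 63.5 and 66.2 FPKM, and for rcn3, at 63.9 and 90.4 FPKM. The calls of col9a2, col2a1b, col27a1a, col9a1a, col11a2, col2a1a, col9a3, acana, lect1, rcn3, f3b and thbs1b held without each library in turn.

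The 12 lower calls with the smallest p included genes known from neurons, retina and red cells. Stmn1b, a stathmin that binds tubulin in neurons, stood at 473 and 503 FPKM in Fli1- and 20.3 and 15.7 FPKM in High-Fli1+ libraries (log2 fold change -4.70 ± 0.25 (SE), adjusted p = 0.00243). Ctnnd2b, a delta-catenin of neurons, stood at 111 and 108 FPKM in Fli1- and 2.96 and 3.45 FPKM in High-Fli1+ libraries (log2 fold change -4.71 ± 0.24 (SE), adjusted p = 0.00243). Otx5, a homeobox factor of photoreceptors and the pineal, stood at 72.9 and 76.2 FPKM in Fli1- and 3.13 and 3.29 FPKM in High-Fli1+ libraries (log2 fold change -4.16 ± 0.23 (SE), adjusted p = 0.00243). Here too the rule required populations that did not overlap. Slc29a1b, a nucleoside transporter, stood at 88.8 and 73.6 FPKM in Fli1- and 0.499 and 0.829 FPKM in High-Fli1+ libraries (49.4-fold lower on log2(FPKM + 1)). Evlb, an actin regulator of the Ena/VASP family, stood at 90.3 and 79.7 against 0.826 and 1.30 FPKM (41.8-fold lower on log2(FPKM + 1)). The adhesion molecule cadm3 (-4.56), the membrane glycoprotein gpm6ab (-4.28), the tetratricopeptide gene ttc9b (-5.05) and the bHLH factors neurod1 (-3.999) and neurod4 (-4.80) followed, each as a log2 fold change. The remaining 2 of these 12 genes were cahz, the carbonic anhydrase of red cells, and the globin hbae3. In Low-Fli1+ libraries otx5 stood at 74.6 and 69.6 FPKM and ctnnd2b at 142 and 110.0 FPKM, near or above their Fli1- levels, whereas stmn1b, at 231 and 178 FPKM, lay between the other populations. The calls of stmn1b, ctnnd2b, otx5, slc29a1b, evlb, cadm3, gpm6ab, ttc9b, neurod1, neurod4, cahz and hbae3 held without each library in turn.

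**Figure D2:**
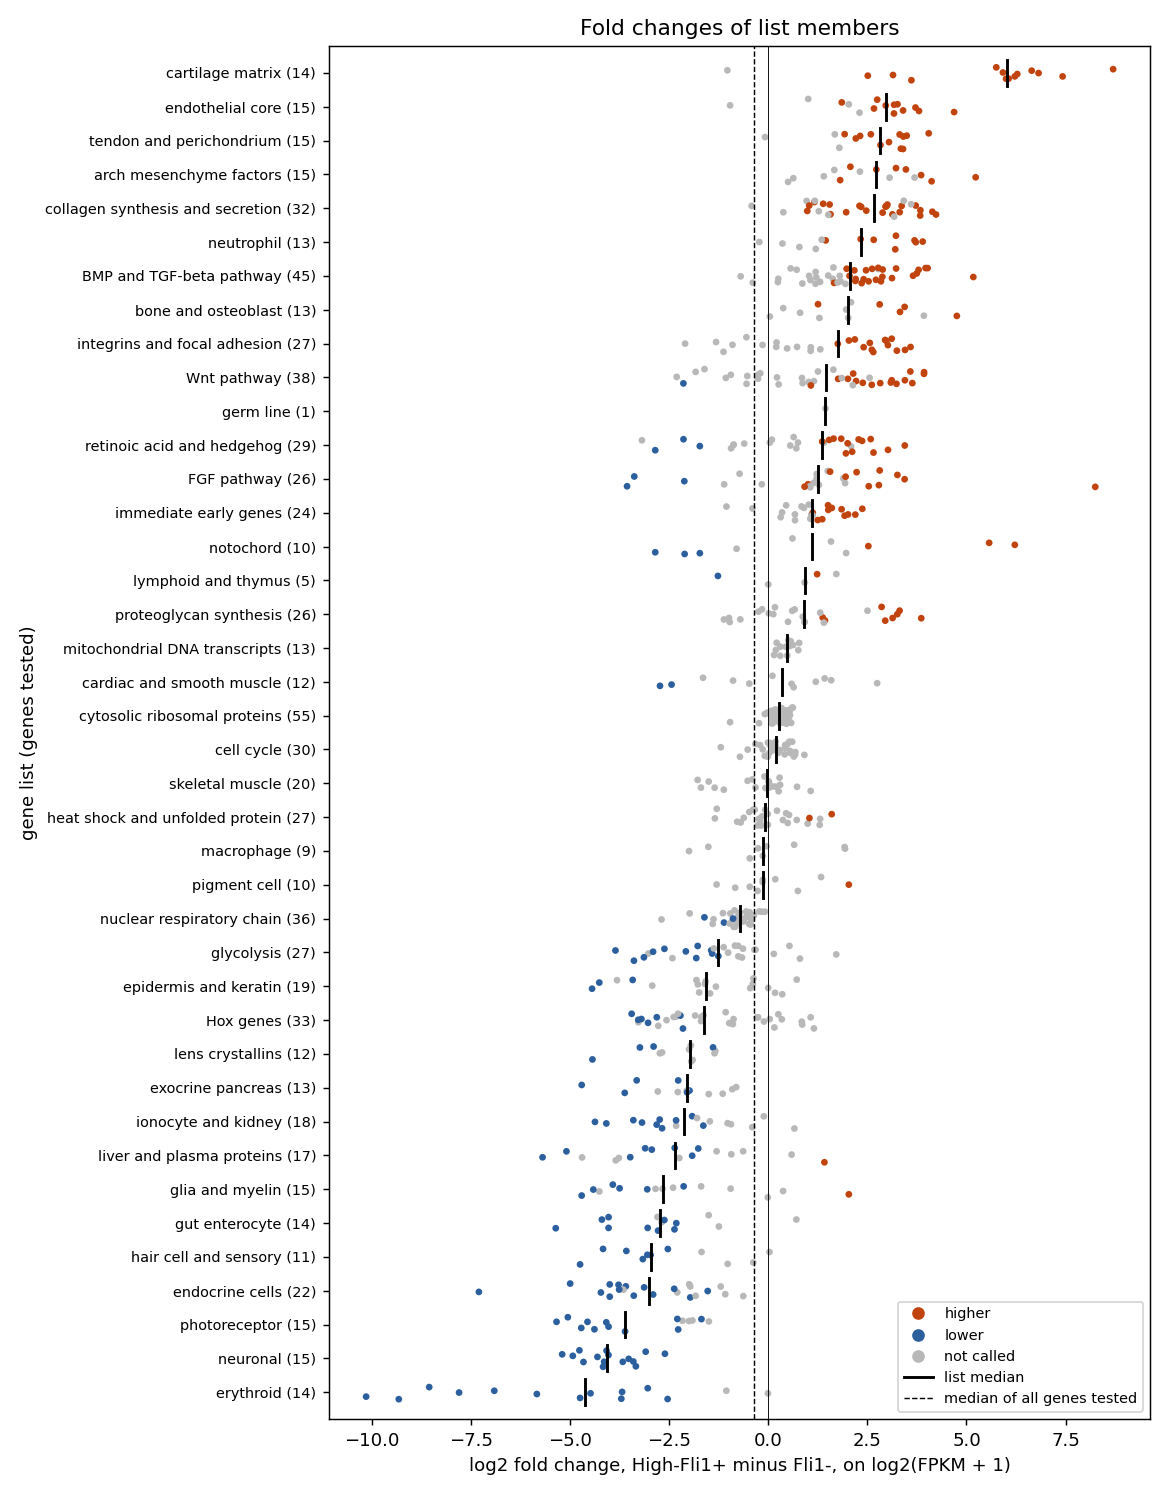
Log2 fold changes of High-Fli1+ minus Fli1- on log2(FPKM + 1) (x axis) for the tested members of 40 gene lists (y axis, number tested in brackets); each point is a gene coloured by call, black bars are list medians and the dashed line is the median of all genes tested, -0.37. Cartilage matrix has the highest median, 6.03, and erythroid genes the lowest, -4.62.

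The machinery that folds, modifies and exports collagen was higher in High-Fli1+ cells across most of its steps. Of 32 genes of collagen synthesis and secretion tested, 23 were called higher and 0 lower, with a median log2 fold change of 2.68 against -0.37 over all genes. Without 1 of the 4 compared libraries the higher count was 6 to 9. Prolyl and lysyl hydroxylases, which modify the chains of the collagen triple helix, included p3h1 at 1.79 and 6.47 FPKM in Fli1- and 89.0 and 80.7 FPKM in High-Fli1+ libraries (log2 fold change 4.23 ± 0.63 (SE), adjusted p = 0.0109). Plod2, a lysyl hydroxylase, stood at 3.99 and 3.58 FPKM in Fli1- and 78.6 and 49.0 FPKM in High-Fli1+ libraries (log2 fold change 3.72 ± 0.37 (SE), adjusted p = 0.00431). P4ha1a (2.99), p4ha1b (2.96), p4ha2 (2.89), plod1a (3.13), PLOD3 (3.01) and crtap, the partner of p3h1 (3.32), were also higher on the log2 scale. Chaperones of the helix were higher as well, with serpinh1b, the collagen chaperone Hsp47, at 58.6 and 69.9 FPKM in Fli1- and 1561 and 840.4 FPKM in High-Fli1+ libraries. Fkbp10b, a prolyl isomerase of the endoplasmic reticulum, stood at 5.18 and 4.05 FPKM in Fli1- and 71.9 and 86.5 FPKM in High-Fli1+ libraries (log2 fold change 3.84 ± 0.28 (SE), adjusted p = 0.00279). Fkbp9, of the same family, stood at 17.9 and 18.6 FPKM in Fli1- and 265 and 281 FPKM in High-Fli1+ libraries (log2 fold change 3.83 ± 0.24 (SE), adjusted p = 0.00243).

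Among export genes, 1 member of a paralog pair was called higher and the other was not called. Sec24d, a coat protein of the vesicles that leave the endoplasmic reticulum and a gene needed for the head skeleton in zebrafish, stood at 6.54 and 6.57 FPKM in Fli1- and 76.0 and 77.7 FPKM in High-Fli1+ libraries (log2 fold change 3.37 ± 0.47 (SE), adjusted p = 0.00919). Its relative sec24c stood at 14.5 and 16.9 against 13.7 and 9.53 FPKM and was not called (log2 fold change -0.42, 95% interval -1.31 to 0.48). Sec23a rose by 1.17, and sec23b gave 0.38 without a call. Creb3l2, a transcription factor that acts on these export genes, stood at 20.4 and 12.7 FPKM in Fli1- and 90.4 and 81.8 FPKM in High-Fli1+ libraries (log2 fold change 2.34 ± 0.49 (SE), adjusted p = 0.0279). The difference between the members of a pair was not tested. The Golgi coat genes copa (1.03) and copb2 (0.98) and the procollagen protease bmp1a (2.47) were higher too. The calls of fkbp10b, fkbp9, bmp1a, p4ha1a and p4ha1b held without each library in turn. Those of p3h1, plod2, serpinh1b, sec24d, sec23a, creb3l2, p4ha2, plod1a, PLOD3, crtap, copa and copb2 were each lost without at least 1 of the 4 compared libraries (adjusted p up to 0.224, for creb3l2). Here and below, members named beyond the 4 largest changes of a list were chosen for their role after their values were seen.

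Proteoglycan synthesis genes called higher included those that supply sulfate and sugar precursors. 26 genes were tested of 28 listed and 8 were called higher and 0 lower (median 0.89), with 1 to 3 higher without 1 compared library. Papss2b, which makes the sulfate donor of sulfotransferases, stood at 6.55 and 8.13 FPKM in Fli1- and 141 and 101 FPKM in High-Fli1+ libraries (log2 fold change 3.86 ± 0.28 (SE), adjusted p = 0.00283). Slc26a2, the sulfate transporter of cartilage cells, stood at 0.515 and 1.79 FPKM in Fli1- and 18.1 and 16.1 FPKM in High-Fli1+ libraries (log2 fold change 3.14 ± 0.51 (SE), adjusted p = 0.0138). Chst3a, a chondroitin sulfotransferase, stood at 0.418 and 0.118 FPKM in Fli1- and 13.2 and 10.05 FPKM in High-Fli1+ libraries (log2 fold change 3.31 ± 0.82 (SE), adjusted p = 0.0435). Each of these was low in both Fli1- libraries and at 10 FPKM or more in both High-Fli1+ libraries. Ugdh, which makes the glucuronic acid precursor (2.86), xylt1, which adds the first sugar to the core protein (1.37), and has2, a hyaluronan synthase (3.26), were higher as log2 fold changes. The polymerase genes ext1a (0.01), ext1b (0.17) and ext2 (0.60) and another sulfate donor gene, papss1 (-0.70), did not pass. The call of papss2b held without each library in turn. Those of slc26a2, chst3a, ugdh, xylt1 and has2 were each lost without at least 1 of the 4 compared libraries (adjusted p up to 0.267, for chst3a).

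**Figure D3:**
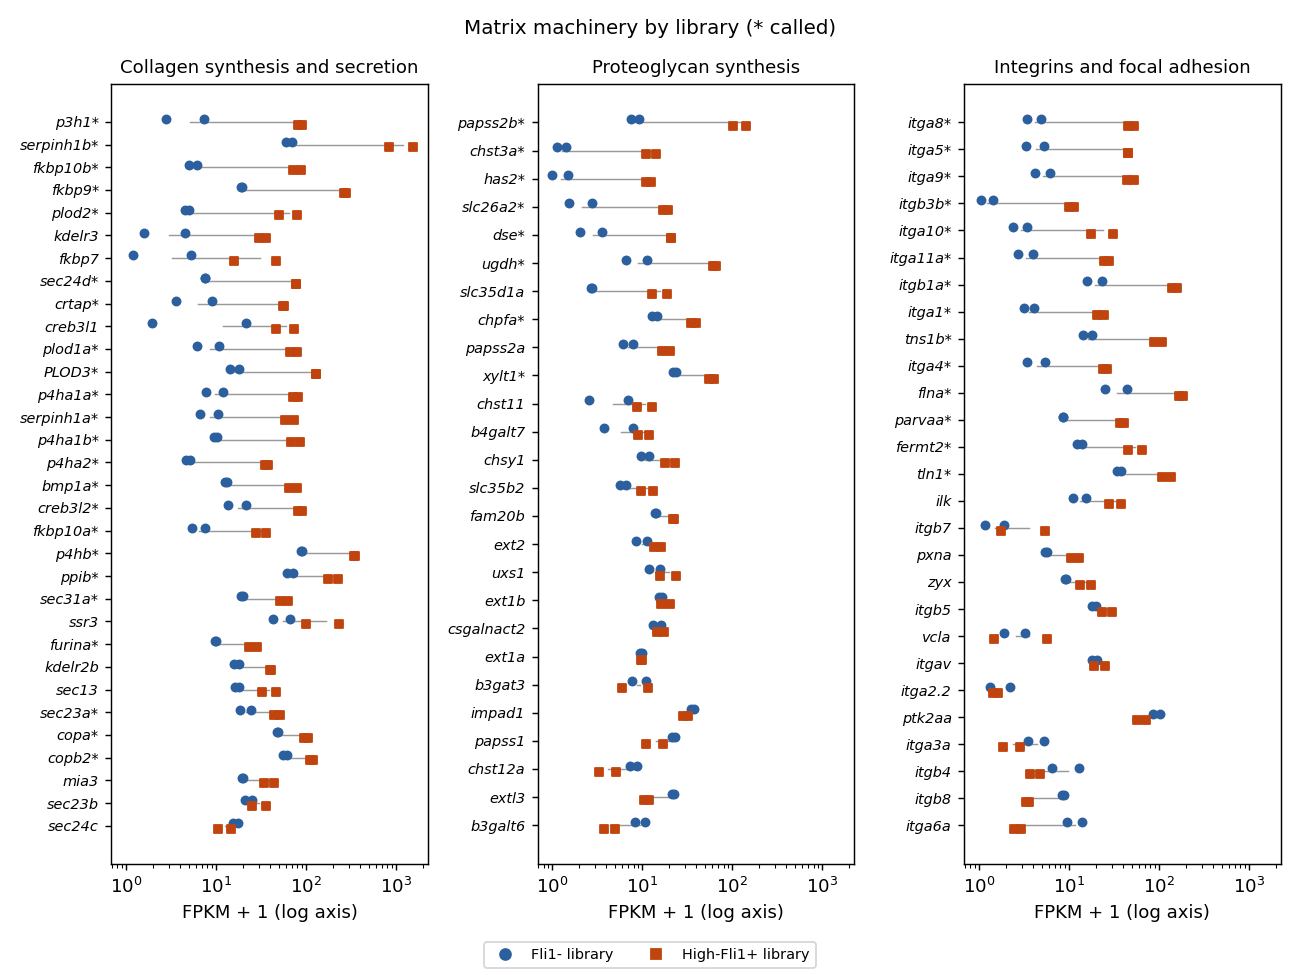
FPKM + 1 per library (x axis, log) of the tested members of 3 lists, with Fli1- libraries as blue circles, High-Fli1+ libraries as orange squares and a line between the population means; an asterisk marks a call. The upper genes of each panel, such as p3h1, papss2b and itga8, lie to the right in High-Fli1+ libraries. Others, such as sec24c and ext1a, lie close together, and some, such as itga6a and itgb4, lie to the left in High-Fli1+ libraries.

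Tendon and skeletal connective tissue genes were also higher. Of 15 tendon and perichondrium genes tested 12 were called higher and 0 lower (median 2.83), with 5 to 7 higher without 1 compared library. Tgfbi, a secreted matrix protein that binds collagen, stood at 11.1 and 22.7 FPKM in Fli1- and 297 and 262 FPKM in High-Fli1+ libraries. Col12a1b, a collagen on the surface of fibrils, stood at 9.88 and 14.6 FPKM in Fli1- and 158 and 134 FPKM in High-Fli1+ libraries (log2 fold change 3.49 ± 0.28 (SE), adjusted p = 0.00309). Dcn, the small proteoglycan decorin, stood at 7.05 and 9.37 FPKM in Fli1- and 109 and 83.4 FPKM in High-Fli1+ libraries (log2 fold change 3.40 ± 0.26 (SE), adjusted p = 0.00299). The tendon transcription factors mkxa (3.35) and scxa (2.32) and the tendon membrane protein tnmd (2.21) rose on the log2 scale, and kera, a proteoglycan of the cornea, gave -0.08 with no call. For tgfbi, Low-Fli1+ libraries stood at 182 and 348 FPKM, the second being the highest of all 6.

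Bone genes had fewer calls. Of 13 tested, 5 were called higher and 0 lower (median 2.02). Without any 1 compared library 1 was called higher, and 4 to 7 under the other scalings. Col10a1a, the collagen of hypertrophic cartilage and zebrafish osteoblasts, stood at 1.37 and 3.43 FPKM in Fli1- and 97.6 and 77.0 FPKM in High-Fli1+ libraries (log2 fold change 4.76 ± 0.39 (SE), adjusted p = 0.00335). Runx2b, a transcription factor required for osteoblasts, stood at 1.12 and 0.782 FPKM in Fli1- and 24.6 and 16.4 FPKM in High-Fli1+ libraries (log2 fold change 3.44 ± 0.52 (SE), adjusted p = 0.0118), and runx2a rose by 3.32. Sp7, the osteoblast factor downstream of them, stood at 0 and 0.413 FPKM in Fli1- and 6.56 and 2.07 FPKM in High-Fli1+ libraries without a call (adjusted p = 0.0701), and bglap, osteocalcin, was under the FPKM filter. The calls of col12a1b, dcn and col10a1a held without each library in turn. Those of tgfbi, mkxa, scxa, tnmd, runx2b and runx2a were each lost without at least 1 of the 4 compared libraries (adjusted p up to 0.234, for tnmd).

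Integrins, the receptors that hold cells to matrix, were higher for several alpha and beta subunits, beside 5.91% higher over all genes tested. Of 27 integrin and focal adhesion genes tested, 14 were called higher and 0 lower (median 1.75), with 4 to 11 higher without 1 compared library. Itga8, a subunit that binds fibronectin and nephronectin, stood at 3.89 and 2.45 FPKM in Fli1- and 52.3 and 44.9 FPKM in High-Fli1+ libraries (log2 fold change 3.59 ± 0.30 (SE), adjusted p = 0.00341). Itga5, the fibronectin receptor subunit, stood at 2.35 and 4.25 FPKM in Fli1- and 45.2 and 44.6 FPKM in High-Fli1+ libraries (log2 fold change 3.45 ± 0.34 (SE), adjusted p = 0.00431). Itga10 and itga11a, collagen-binding subunits, rose by 3.02 and 2.98, and their beta partner itgb1a stood at 15.1 and 22.6 FPKM in Fli1- and 159 and 141 FPKM in High-Fli1+ libraries. The laminin-binding epithelial subunits were not called, itga6a at 8.55 and 13.0 against 1.49 and 1.93 FPKM (-2.10, adjusted p = 0.188) and itgb4 at 5.50 and 11.98 against 3.80 and 2.68 FPKM (-1.13, adjusted p = 0.207). Among the adaptors, tln1, the talin that activates integrins (1.75), and fermt2, a kindlin (2.03), were higher. The calls of itga8 and itgb1a held without each library in turn. Those of itga5, itga10, itga11a, tln1 and fermt2 were each lost without at least 1 of the 4 compared libraries (adjusted p up to 0.146, for itga10).

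Wnt genes higher in High-Fli1+ cells included wnt5b with its receptors, which act on cell movement and shape, and secreted inhibitors. 38 of 40 listed genes were tested and 16 were called higher and 1 lower (median 1.45); the higher count was 6 to 9 without 1 compared library. The ligand wnt5b, required for cartilage cell stacking in zebrafish, stood at 4.36 and 7.03 FPKM in Fli1- and 104 and 93.7 FPKM in High-Fli1+ libraries (log2 fold change 3.93 ± 0.28 (SE), adjusted p = 0.00276). Its known receptors fzd2 (3.64), ror1 (3.09) and ror2 (3.23) and the proteoglycan co-receptor gpc4 (2.39) rose too. Sfrp2, a secreted Wnt inhibitor, stood at 5.26 and 7.56 FPKM in Fli1- and 127 and 96.6 FPKM in High-Fli1+ libraries (log2 fold change 3.93 ± 0.29 (SE), adjusted p = 0.00280). Sfrp1a, of the same family, stood at 6.76 and 5.73 FPKM in Fli1- and 101 and 72.7 FPKM in High-Fli1+ libraries (log2 fold change 3.58 ± 0.27 (SE), adjusted p = 0.00299), and frzb at 1.62 and 1.62 against 34.0 and 22.4 FPKM. None of these inhibitors reached 10 FPKM in a Fli1- library. Of the beta-catenin branch, lef1 (-0.53), axin2 (0.87) and lrp6 (-0.26) were not called, lrp5 was higher (2.14), and the ligand wnt3, at 3.96 and 2.92 against 0 and 0 FPKM, was lower. The calls of wnt5b, sfrp2, sfrp1a, gpc4 and lrp5 held without each library in turn. Those of frzb, fzd2, ror1, ror2 and wnt3 were each lost without at least 1 of the 4 compared libraries (adjusted p up to 0.0797, for ror1).

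BMP and TGF-beta ligands, their antagonists and their targets were among the higher genes. Of 45 genes tested, 24 were called higher and 0 lower (median 2.05), with 5 to 7 higher without 1 compared library. Gdf5, a ligand of developing joints, had levels of 40.6 and 30.3 FPKM in High-Fli1+ cells and was listed at 0 in the 2 Fli1- libraries (adjusted p = 0.00528). Bmp5 stood at 0.768 and 1.74 FPKM in Fli1- and 33.1 and 26.3 FPKM in High-Fli1+ libraries (log2 fold change 3.79 ± 0.66 (SE), adjusted p = 0.0163). Tgfb2 stood at 7.83 and 4.76 FPKM in Fli1- and 136 and 89.9 FPKM in High-Fli1+ libraries (log2 fold change 3.97 ± 0.69 (SE), adjusted p = 0.0166). The latent TGF-beta binding proteins, which hold the ligands in matrix, were higher too: LTBP3 stood at 0.765 and 0.898 against 38.2 and 21.5 FPKM and ltbp1 at 4.55 and 3.12 against 69.9 and 57.0 FPKM in Fli1- against High-Fli1+. Secreted BMP antagonists were higher as well, grem2b by 3.65, chd, the gene of Chordin, by 2.89, nog3 by 2.88, nog2 by 2.62 and bmper by 2.53 on the log2 scale. Of the type I receptor genes, bmpr1ab (2.36), bmpr1bb (1.98) and bmpr1ba were higher, and bmpr1aa (1.51), tgfbr1a (1.75) and acvr1l (-0.70) were not called. Bmpr1ba stood at 5.28 and 5.48 FPKM in Fli1- and 56.3 and 52.8 FPKM in High-Fli1+ libraries (log2 fold change 3.12 ± 0.31 (SE), adjusted p = 0.00441). The type II receptors bmpr2a (-0.39) and bmpr2b (0.24) were not called. The BMP target genes id1, at 81.8 and 109 against 447 and 349 FPKM, and id3, at 52.1 and 63.6 against 342 and 280.3 FPKM, and the inhibitory smad6b (2.17) were higher. The calls of ltbp1, bmpr1ba and bmpr1ab held without each library in turn. Those of gdf5, bmp5, tgfb2, LTBP3, grem2b, chd, nog3, nog2, bmper, bmpr1bb, id1, id3 and smad6b were each lost without at least 1 of the 4 compared libraries (adjusted p up to 0.175, for tgfb2).

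Most FGF receptors and both binding proteins tested were higher, and the intracellular FGFs of neurons lower. Of 26 genes tested, 11 were called higher and 3 lower (median 1.25). Without 1 compared library 3 to 4 were higher and 0 lower, and 1 was lower after quantile normalization. Fgfbp2a, a carrier of secreted FGFs, stood at 0.533 and 0.292 FPKM in Fli1- and 10.4 and 14.9 FPKM in High-Fli1+ libraries (log2 fold change 3.26 ± 0.78 (SE), adjusted p = 0.0388), beside its larger relative fgfbp2b (8.25). Fgfr3, a receptor that restrains cartilage growth in mammals, stood at 13.3 and 17.6 FPKM in Fli1- and 117 and 110.3 FPKM in High-Fli1+ libraries (log2 fold change 2.81 ± 0.25 (SE), adjusted p = 0.00359). Fgfr2 stood at 40.0 and 47.3 FPKM in Fli1- and 268 and 247 FPKM in High-Fli1+ libraries (log2 fold change 2.54 ± 0.21 (SE), adjusted p = 0.00341). The decoy receptor genes fgfrl1a (2.79) and fgfrl1b (3.44), fgfr1a (1.95) and fgfr4 (1.004) were higher, as were the feedback and target genes il17rd (2.23), etv5b (1.56) and dusp6 (0.92). Fgf13a, which binds sodium channels in neurons, stood at 40.4 and 32.6 FPKM in Fli1- and 4.98 and 1.15 FPKM in High-Fli1+ libraries, and fgf13b at 19.2 and 19.3 against 1.94 and 0 FPKM. The 3 lower calls include 1 further gene, which is not an intracellular FGF and is not described here. The calls of fgfbp2b, fgfr3 and fgfr2 held without each library in turn. Those of fgfbp2a, fgfrl1a, fgfrl1b, fgfr1a, fgfr4, il17rd, etv5b, dusp6, fgf13a and fgf13b were each lost without at least 1 of the 4 compared libraries (adjusted p up to 0.297, for fgf13a).

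In the hedgehog pathway both sonic hedgehog ligand genes were lower and several receptor and target genes higher in High-Fli1+ cells. Of 29 retinoic acid and hedgehog genes tested, 13 were called higher and 3 lower (median 1.36), and 4 to 7 higher and 0 to 1 lower without 1 compared library. The ligand shha, made by notochord, floor plate and pharyngeal endoderm, stood at 13.9 and 9.16 FPKM in Fli1- and 0.717 and 0.696 FPKM in High-Fli1+ libraries (log2 fold change -2.85 ± 0.50 (SE), adjusted p = 0.0170), and shhb at 2.90 and 3.31 against 0.535 and 0 FPKM. The receptor ptch1, which is also a transcriptional target of the pathway, stood at 61.0 and 48.4 FPKM in Fli1- and 481 and 419 FPKM in High-Fli1+ libraries (log2 fold change 3.02 ± 0.24 (SE), adjusted p = 0.00305). Also higher were the feedback genes hhip (2.003) and gli1 (1.84), the co-receptors boc (2.66) and cdon (1.65), the effector gli2a (2.28) and the transducer smo (1.54). Ihha, a ligand of cartilage and bone, gave 0.04 with no call, at 1.75 and 6.54 against 3.74 and 3.63 FPKM.

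Retinoic acid genes were called in both directions. Aldh1a2, a synthesising enzyme of mesoderm, stood at 14.5 and 13.7 FPKM in Fli1- and 53.1 and 62.6 FPKM in High-Fli1+ libraries (log2 fold change 1.96 ± 0.37 (SE), adjusted p = 0.0203), while aldh1a3, an enzyme of the eye and other tissues, stood at 4.15 and 4.39 FPKM in Fli1- and 0 and 0.433 FPKM in High-Fli1+ libraries and was lower. The degrading enzyme cyp26b1, needed for the zebrafish head skeleton, stood at 17.2 and 17.8 FPKM in Fli1- and 93.9 and 95.3 FPKM in High-Fli1+ libraries (log2 fold change 2.37 ± 0.27 (SE), adjusted p = 0.00579), and cyp26a1 gave -0.94 and cyp26c1 -0.87 without a call. The receptor rarga (2.58) and the binding protein crabp2b (3.44) were higher. The calls of ptch1, boc and cdon held without each library in turn. Those of shha, shhb, hhip, gli1, gli2a, smo, aldh1a2, aldh1a3, cyp26b1, rarga and crabp2b were each lost without at least 1 of the 4 compared libraries (adjusted p up to 0.192, for smo). With equal sums without Metazoa_SRP, smo (adjusted p = 0.0661), shhb (adjusted p = 0.0548) and aldh1a3 (adjusted p = 0.0517) were no longer called.

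**Figure D4:**
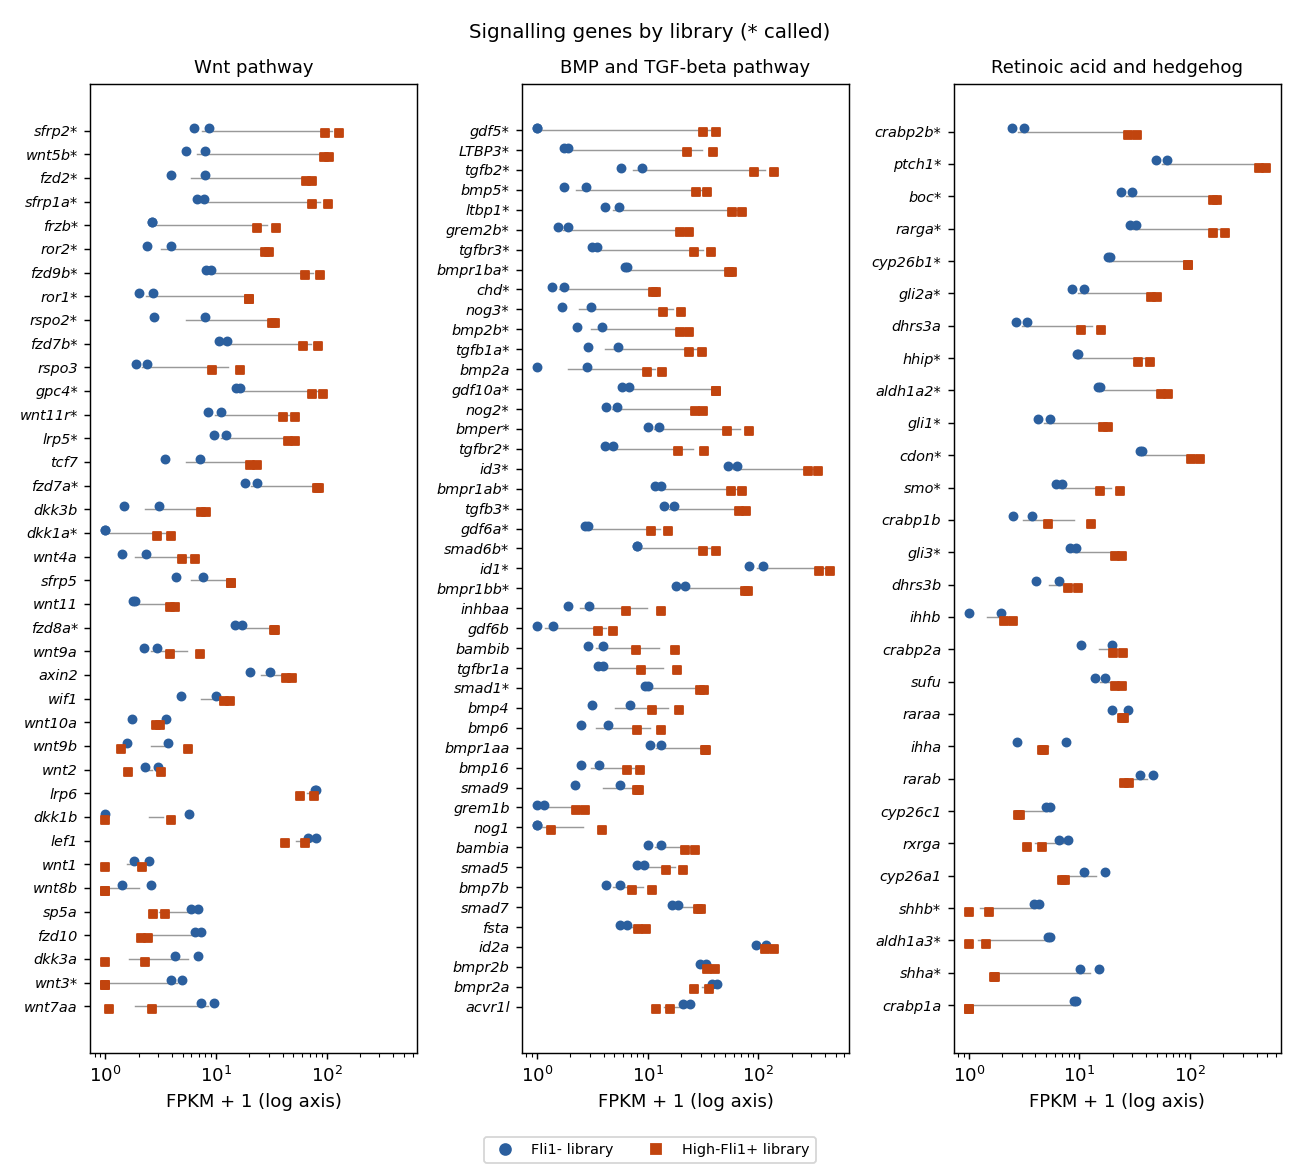
FPKM + 1 per library (x axis, log) of tested Wnt, BMP and TGF-beta, and retinoic acid and hedgehog genes, with Fli1- libraries as blue circles, High-Fli1+ libraries as orange squares and a line between the means; an asterisk marks a call. In the right panel ptch1, boc and hhip lie to the right in High-Fli1+ libraries, and shha and shhb to the left.

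Many immediate early genes, which respond within minutes to signals, were higher in High-Fli1+ libraries, beside 5.91% higher over all genes tested. Of 24 tested, 11 were called higher and 0 lower (median 1.103). Ier2 stood at 100.2 and 98.5 FPKM in Fli1- and 579 and 464 FPKM in High-Fli1+ libraries (log2 fold change 2.37 ± 0.23 (SE), adjusted p = 0.00435). Fosl1a, an AP-1 subunit, stood at 46.8 and 79.3 FPKM in Fli1- and 254 and 315 FPKM in High-Fli1+ libraries (log2 fold change 2.197 ± 0.35 (SE), adjusted p = 0.0129). Junba and junbb rose by 2.01 and 1.85, and fosab, already abundant in Fli1- cells, stood at 703 and 773 FPKM in Fli1- and 1963 and 2265 FPKM in High-Fli1+ libraries (log2 fold change 1.51 ± 0.36 (SE), adjusted p = 0.0396). The exceptions in direction were fosaa (-0.40) and myca (-1.05), neither called. Without 1 compared library, 1 of these genes was called in each case, and that was ier2. The call of ier2 held without each library in turn. Those of fosl1a, junba, junbb and fosab were each lost without at least 1 of the 4 compared libraries (adjusted p up to 0.369, for fosab). Fosab was also lost after quantile normalization (adjusted p = 0.0568).

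Few heat shock and unfolded protein genes were called, and the share called higher was near the 5.91% over all genes tested. Of 27 heat shock and unfolded protein genes, 2 were called higher and 0 lower, 0 higher without any 1 compared library, and their median of -0.07 became 0.23 under median-ratio scaling and 0.05 with equal sums without Metazoa_SRP. The heat shock gene hsp70l stood at 809 and 595 FPKM in Fli1- and 528 and 307 FPKM in High-Fli1+ libraries, and the most abundant one, hsp90ab1, at 4654 and 5164 FPKM in Fli1- and 4463 and 5299.8 FPKM in High-Fli1+ libraries, neither called. Higher were xbp1, a regulator of the secretory pathway (1.04), and dnajc3a, a chaperone cofactor of the endoplasmic reticulum (1.601). Calls of xbp1 and dnajc3a were each lost without at least 1 of the 4 compared libraries (adjusted p up to 0.161, for xbp1).

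Without further scaling, every Hox gene called was lower in High-Fli1+ cells, where 12.3% of all genes tested were called lower. Most of the Hox genes called belong to the trunk, but most genes of the list are also of trunk or tail. Hox genes pattern the body from hindbrain to tail in the order of their number. Of 33 tested, 0 were called higher and 7 lower (median -1.63), with 1 to 3 lower without 1 compared library. After quantile normalization 1 was called higher and 6 lower. Hoxb9a stood at 8.94 and 15.9 FPKM in Fli1- and 0.411 and 0 FPKM in High-Fli1+ libraries. Hoxc8a stood at 9.65 and 21.1 FPKM in Fli1- and 0.404 and 0.776 FPKM in High-Fli1+ libraries. Hoxc10a stood at 16.2 and 17.0 FPKM in Fli1- and 2.76 and 0.235 FPKM in High-Fli1+ libraries, and hoxc9a, at 6.59 and 10.1 against 0 and 0 FPKM, was listed at 0 in both High-Fli1+ libraries. Hoxc6a, hoxb10a and hoxd3a made up the rest of the calls, and the last is an anterior gene, which fell by 2.81 on the log2 scale. Of other anterior genes, none called, hoxa3a stood at 40.4 and 44.7 against 34.6 and 44.6 FPKM (-0.11), hoxb3a at 44.7 and 34.3 against 58.6 and 37.5 FPKM (0.25) and hoxa2b at 0.722 and 0.845 against 2.88 and 3.04 FPKM (1.15). Calls of hoxb9a, hoxc8a, hoxc10a, hoxc9a, hoxc6a, hoxb10a and hoxd3a were each lost without at least 1 of the 4 compared libraries (adjusted p up to 0.228, for hoxc8a).

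Many genes of glia, eye and ear were lower, beside 12.3% lower and 5.91% higher over all genes tested. Photoreceptor genes had 0 higher and 11 lower of 15 tested (median -3.61), with 3 lower without any 1 compared library. The red opsin opn1lw2 stood at 48.9 and 53.4 FPKM in Fli1- and 0 and 0.650 FPKM in High-Fli1+ libraries (log2 fold change -5.34 ± 0.40 (SE), adjusted p = 0.00293), and rcvrna, a recoverin, at 23.1 and 32.6 FPKM in Fli1- and 0.171 and 0 FPKM in High-Fli1+ libraries (log2 fold change -4.72 ± 0.43 (SE), adjusted p = 0.00380). Glia and myelin genes had 1 higher and 6 lower of 15 (median -2.67), with 0 higher and 1 to 3 lower without 1 compared library. The higher one was sox10, a factor of neural crest, glia and pigment cells that also acts in the ear, at 8.06 and 4.38 FPKM in Fli1- and 29.6 and 25.6 FPKM in High-Fli1+ libraries (log2 fold change 2.03 ± 0.39 (SE), adjusted p = 0.0211). The radial glial lipid carrier fabp7a stood at 195 and 291 FPKM in Fli1- and 11.8 and 18.4 FPKM in High-Fli1+ libraries (log2 fold change -3.92 ± 0.32 (SE), adjusted p = 0.00334). Hair cell and ear genes had 0 higher and 7 lower of 11 (median -2.97), or 2 to 5 lower without 1 compared library, among them otofb, needed for hair cell synapses, at 11.4 and 10.5 FPKM in Fli1- libraries and listed at 0 in both High-Fli1+ libraries (adjusted p = 0.00626). Lens genes had 0 higher and 4 lower of 12 (median -1.98), or 0 to 5 lower without 1 compared library, led by the crystallin crybb1 at 39.4 and 18.1 FPKM in Fli1- and 0.645 and 0 FPKM in High-Fli1+ libraries, and near-identical crystallin copies may share reads. The calls of opn1lw2, rcvrna, fabp7a and otofb held without each library in turn. Those of sox10 and crybb1 were each lost without at least 1 of the 4 compared libraries (adjusted p up to 0.152, for crybb1).

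Many transcripts of hormone-producing cells, gut, liver and pancreas were lower in High-Fli1+ libraries, often listed at 0. High-Fli1+ libraries also listed more genes at 0 over all genes, 11054 and 11457 against 8683 and 8451 in Fli1-. Of all genes tested, 12.3% were called lower and 5.91% higher. Endocrine cell genes had 0 higher and 14 lower of 22 tested (median -3.02), with 4 to 9 lower without 1 compared library, and 9 were listed at 0 in both High-Fli1+ libraries. The hormone genes sst2, somatostatin, at 10.98 and 14.7 FPKM in Fli1- libraries (adjusted p = 0.00623), and gcga, glucagon, at 7.67 and 15.8 FPKM (adjusted p = 0.00939), were among these. Insm1a, a zinc-finger factor of endocrine cells and neurons, stood at 68.3 and 76.8 FPKM in Fli1- and 4.03 and 0.0501 FPKM in High-Fli1+ libraries. Pcsk1, the prohormone convertase, stood at 26.0 and 18.0 FPKM in Fli1- and 0.904 and 0.0538 FPKM in High-Fli1+ libraries. Prolactin (prl) of the pituitary was listed at 0 in High-Fli1+ and stood at 4.92 and 3.53 FPKM in Fli1- libraries. Several of this list, such as neurod1, pax6b, isl1 and scg2b, are also expressed in neurons.

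Exocrine pancreas genes had 0 higher and 6 lower of 13 tested (median -2.05), with 1 to 7 lower without 1 compared library. Ptf1a, the factor that specifies acinar cells and some neurons, stood at 8.32 and 9.68 FPKM in Fli1- libraries and was listed at 0 in High-Fli1+ (adjusted p = 0.00702). Of 14 gut genes, 0 were higher and 9 lower (median -2.73), or 2 to 6 lower without 1 compared library, with the fatty acid carriers fabp2, at 38.8 and 41.4 FPKM, and fabp1b.1, at 16.6 and 14.1 FPKM in Fli1-, both listed at 0 in High-Fli1+ libraries. Liver and plasma protein genes had 1 higher and 8 lower of 17 (median -2.36), with 2 to 4 lower without 1 compared library. Apoa1b, the apolipoprotein of high-density lipoprotein, stood at 135 and 151 FPKM in Fli1- and 6.71 and 0 FPKM in High-Fli1+ libraries (log2 fold change -5.69 ± 0.93 (SE), adjusted p = 0.0141), and tfa, transferrin, at 74.5 and 145 FPKM in Fli1- and 1.65 and 2.57 FPKM in High-Fli1+ libraries (log2 fold change -5.09 ± 0.99 (SE), adjusted p = 0.0227). The higher one was ttr, transthyretin, listed at 0 in Fli1- and at 1.71 and 1.63 FPKM in High-Fli1+ libraries. The calls of sst2, ptf1a and fabp1b.1 held without each library in turn. Those of gcga, insm1a, pcsk1, prl, fabp2, apoa1b, tfa and ttr were each lost without at least 1 of the 6 libraries. The call of ttr was kept without each of the 4 compared libraries. It was lost without either Low-Fli1+ library, and also when only the 4 compared libraries were fitted.

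Ionocyte and kidney genes had 0 higher and 10 lower of 18 tested (median -2.12), with 1 to 6 lower without 1 compared library. Pax2a, a factor of kidney, ear and midbrain, stood at 38.2 and 36.5 FPKM in Fli1- and 2.90 and 2.37 FPKM in High-Fli1+ libraries (log2 fold change -3.40 ± 0.30 (SE), adjusted p = 0.00359). Atp6v1aa, a proton pump subunit, stood at 106 and 85.8 FPKM in Fli1- and 20.4 and 16.2 FPKM in High-Fli1+ libraries (log2 fold change -2.32 ± 0.29 (SE), adjusted p = 0.00718), and trpv6, the calcium channel of ionocytes, at 7.03 and 7.03 against 0.302 and 0 FPKM. Epidermal genes had 0 higher and 3 lower of 19 (median -1.58), a share near the 12.3% lower over all genes, and 0 lower without either Fli1- replicate. These 3 were epcam, at 111 and 233 against 16.1 and 2.24 FPKM, cdh1, the epithelial cadherin, at 37.2 and 43.8 against 2.34 and 0.389 FPKM, and the claudin cldni at 16.7 and 26.1 against 0 and 3.20 FPKM. After quantile normalization 1 epidermal gene was called higher and 2 lower. The skin keratin krt4 stood, without a call, at 289.8 and 368 FPKM in Fli1- and 149 and 59.9 FPKM in High-Fli1+ libraries (adjusted p = 0.121). In High-Fli1+ replicate 1 krt4, krt5 and epcam stood above replicate 2. The call of pax2a held without each library in turn. Those of atp6v1aa, trpv6, epcam, cdh1 and cldni were each lost without at least 1 of the 4 compared libraries (adjusted p up to 0.246, for cldni).

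**Figure D5:**
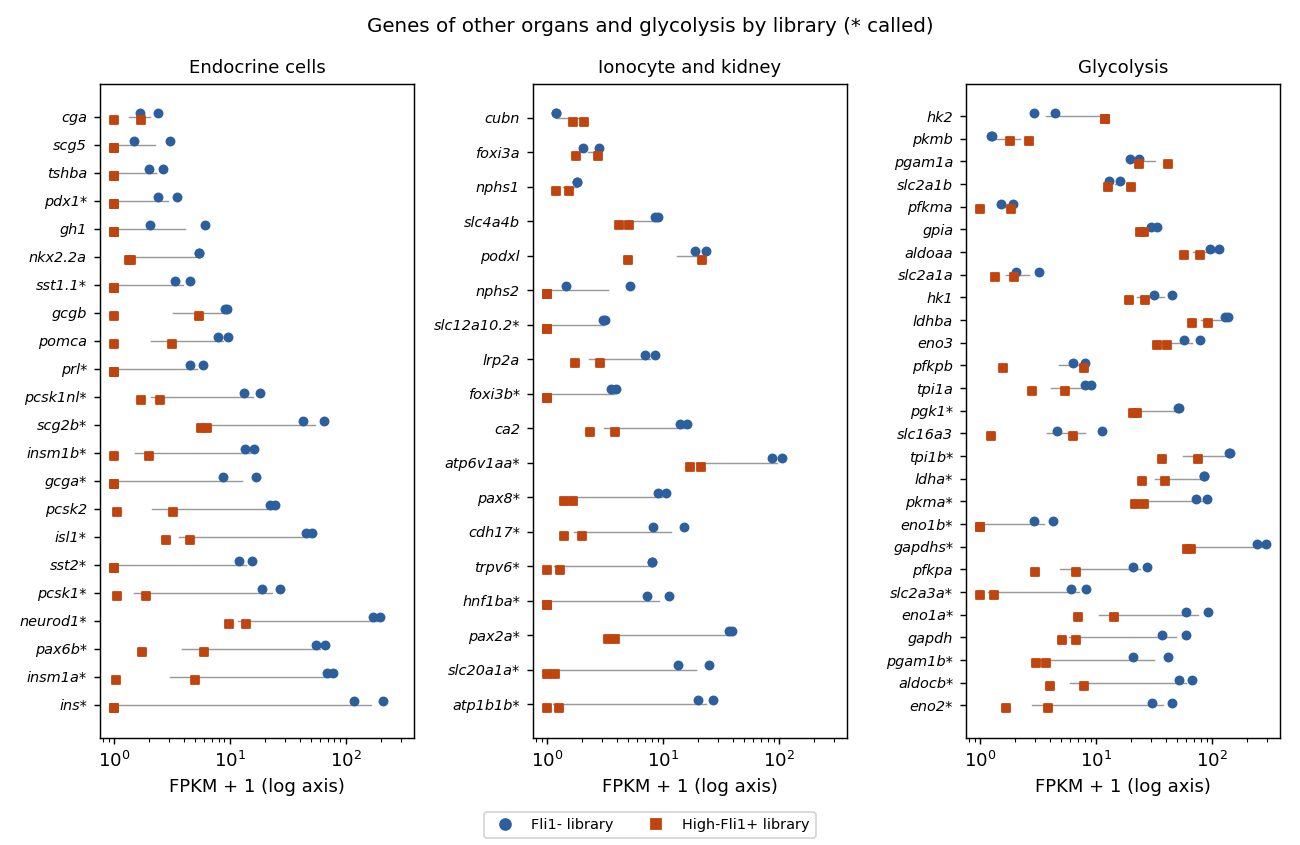
FPKM + 1 per library (x axis, log) of endocrine, ionocyte and kidney, and glycolysis genes, with Fli1- libraries as blue circles, High-Fli1+ libraries as orange squares and a line between the means; an asterisk marks a call. Many endocrine genes sit at 1, that is 0 FPKM, in High-Fli1+ libraries, and in the right panel eno2, aldocb and pgam1b are lower there while hk2 is not called.

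Other lineages gave no calls, few calls or calls in both directions, beside 5.91% higher and 12.3% lower over all genes tested. For 20 skeletal muscle genes 0 were called in either direction by limma and 1 had an unadjusted p under 0.05, with 0 to 1 called lower without 1 compared library and a median of -0.03 that was 0.48 after quantile normalization. Fast muscle genes were low in both populations, for example the myosin light chain mylpfa at 7.76 and 6.55 FPKM in Fli1- and 10.3 and 7.85 FPKM in High-Fli1+ libraries. Macrophage genes also gave 0 calls of 9 tested, 3 at an unadjusted p under 0.05. Fitting only the 4 compared libraries gave 2 higher and 2 lower macrophage calls, array weights 1 and 2, and quantile normalization 1 and 0. The macrophage median of -0.14 was 0.24 after quantile normalization. The microglia and macrophage gene mpeg1.1 stood at 3.26 and 3.50 FPKM in Fli1- and 0.670 and 0.412 FPKM in High-Fli1+ libraries. Pigment cell genes had 1 call of 10, sox10, with 0 without any 1 compared library, and a median of -0.14 that was 0.51 after quantile normalization. Cardiac and smooth muscle genes had 0 higher and 2 lower of 12, or 0 to 1 lower without 1 compared library, the smooth muscle gene tagln at 3.88 and 8.03 against 0 and 0 FPKM and gata6, a factor of heart and endoderm, at 13.2 and 13.4 against 1.36 and 1.94 FPKM. The cardiac and smooth muscle list had a median of 0.35, with log2 fold changes from -2.73 to 2.75. Array weights called 3 of its genes higher and 3 lower, and quantile normalization 1 and 1. Heart genes such as myl7 and vmhc were under the filter. Of 5 lymphoid genes tested, ikzf1, a lymphoid factor, was higher at 6.34 and 6.69 against 16.2 and 17.1 FPKM, and tox, which is also neuronal, lower at 117 and 106 against 54.3 and 38.3 FPKM. With equal sums without Metazoa_SRP neither passed (adjusted p = 0.0587 for ikzf1 and 0.125 for tox), and tox did not under median-ratio scaling (adjusted p = 0.0803) or quantile normalization (adjusted p = 0.0885). Germ line genes left 1 tested gene, ca15b, with no call. The notochord list gave 3 higher and 3 lower of 10 tested (median 1.097), or 1 to 2 higher and 0 to 2 lower without 1 compared library, and its largest rises, epyc (6.22) and col27a1a (5.57), are also cartilage genes. The call of col27a1a held without each library in turn. Those of sox10, tagln, gata6, ikzf1, tox and epyc were each lost without at least 1 of the 4 compared libraries (adjusted p up to 0.276, for tox).

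Without further scaling, the glycolytic genes called were lower in High-Fli1+ cells, brain isoforms among them. Of 27 tested, 0 were called higher and 11 lower (median -1.26), with 1 to 3 lower without 1 compared library. Under the other scalings 0 to 1 were called higher and 8 to 9 lower. Eno2, the neuronal enolase, stood at 44.2 and 29.2 FPKM in Fli1- and 2.89 and 0.680 FPKM in High-Fli1+ libraries (log2 fold change -3.85 ± 0.55 (SE), adjusted p = 0.00973). Aldocb, the aldolase of brain, stood at 65.9 and 51.0 FPKM in Fli1- and 6.91 and 3.004 FPKM in High-Fli1+ libraries (log2 fold change -3.39 ± 0.42 (SE), adjusted p = 0.00700). Gapdhs stood at 293 and 245 FPKM in Fli1- and 60.3 and 64.9 FPKM in High-Fli1+ libraries (log2 fold change -2.08 ± 0.26 (SE), adjusted p = 0.00711), and the lactate dehydrogenase ldha at 84.2 and 83.6 against 38.2 and 24.0 FPKM. Hk2, a hexokinase, stood at 1.94 and 3.44 against 10.9 and 10.8 FPKM in Fli1- against High-Fli1+ and did not pass (adjusted p = 0.0779). Nuclear genes of the respiratory chain had 0 higher and 3 lower of 36 (median -0.72), a share below the 12.3% lower over all genes. The 3 were ndufb8 (-1.61), uqcrfs1 (-1.12) and atp5g1 (-0.89). None of these calls held under median-ratio scaling (adjusted p from 0.105 for ndufb8 to 0.153 for atp5g1). Calls of eno2, aldocb, gapdhs, ldha, ndufb8, uqcrfs1 and atp5g1 were each lost without at least 1 of the 4 compared libraries (adjusted p up to 0.269, for ndufb8).

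Cell cycle, ribosomal and mitochondrial transcripts gave no call in this fit. Of 30 cell cycle genes, 55 cytosolic ribosomal protein genes and 13 transcripts of mitochondrial DNA, limma called 0, and 3, 0 and 0 had an unadjusted p under 0.05. Of the cell cycle genes, 3 were called higher under median-ratio scaling and 1 each after quantile normalization, with array weights and with only the 4 compared libraries fitted. Medians of the 3 lists were 0.19, 0.28 and 0.48 on the log2 scale. The DNA replication gene mcm5 stood at 39.0 and 48.8 FPKM in Fli1- and 61.6 and 72.5 FPKM in High-Fli1+ libraries, and the proliferation marker mki67 at 44.0 and 67.9 FPKM in Fli1- and 64.6 and 60.3 FPKM in High-Fli1+ libraries. The 95% interval of the mki67 log2 fold change ran from -0.52 to 0.89, which does not show equal levels. Ribosomal protein genes summed to 25583 and 39164 FPKM for Fli1- and 24273 and 59570.4 FPKM for High-Fli1+ libraries, highest in High-Fli1+ replicate 2.

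The most abundant transcripts of each population were partly shared. Among the 10 highest in High-Fli1+ cells, col2a1a, at 55.2 and 73.5 FPKM in Fli1- and 5432 and 4666 FPKM in High-Fli1+ libraries, and matn1, at 3.06 and 10.1 FPKM in Fli1- and 3214 and 2432 FPKM in High-Fli1+ libraries, were called higher. The cytoskeletal actins actb1, at 2425 and 2809 FPKM in Fli1- and 3114 and 4034 FPKM in High-Fli1+ libraries, and actb2, at 2010.3 and 1984 FPKM in Fli1- and 2463 and 3141 FPKM in High-Fli1+ libraries, and mt-co1, a subunit of cytochrome oxidase, at 2099.8 and 2839.6 FPKM in Fli1- and 4971 and 3537 FPKM in High-Fli1+ libraries, were not called. Among the 10 highest in Fli1- cells, the globins hbae3, hbbe1.1 and hbbe2 were called lower, the last standing at 2794 and 2249.9 FPKM in Fli1- and 2.91 and 10.4 FPKM in High-Fli1+ libraries, and reads of near-identical globins may be split among copies. The chaperone hspa8 stood at 3168 and 2564 FPKM in Fli1- and 2659.8 and 2461 FPKM in High-Fli1+ libraries, without a call. The non-coding RNAs Metazoa_SRP and rn7sk differed more between the High-Fli1+ replicates than between populations, rn7sk standing at 3541 and 4532 FPKM in Fli1- and 778 and 8537 FPKM in High-Fli1+ libraries. The calls of col2a1a, matn1, hbae3 and hbbe2 held without each library in turn. That of hbbe1.1 was lost without at least 1 of Fli1- replicate 1 and Fli1- replicate 2 (adjusted p up to 0.0872).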

How the data were processed

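The values analysed are gene-level FPKM in 6 libraries, as deposited by the authors. Per the labels' protocols, the libraries were prepared from polyadenylated RNA; the aligner, quantifier and genome build are not given in the sources used here, and FPKM does not give the number of fragments, so depth and counting error are unknown. Of 29144 entries, 18 with date-like names were left out. Values were used without further scaling as log2(FPKM + 1), with a mean of 0.5 FPKM or more over the 4 libraries compared, and fitted with limma 3.58.1 in R 4.3.3 (linear model by population over all 6 libraries, empirical Bayes with a variance trend, Benjamini-Hochberg adjustment over 19309 genes). The fit was checked on simulated data, drawn independently around 1 mean per gene, with known changes added to some genes. This check required only mean estimates near the added changes and more recovery of the largest change than of the smallest. The simulated data lacked the differences in composition between the libraries, so the check does not cover them. With 2 libraries against 2, an exact permutation test cannot reach 0.05, so none was used.

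The members and the 40 gene lists were chosen with earlier results of these data known. Of 883 listed symbols, 869 were found, 9 by an older name and 7 by letter case, and lists are described by counts and medians with no test. The rule for naming took the 12 genes in each direction with the smallest p (populations not overlapping, at least 5 FPKM on average where higher, no provisional name), fli1a and fli1b, at most 4 calls per list, taken by size of change, and the 10 most abundant genes of each population. Not all of these are described. Ins, at 116 and 211 FPKM in Fli1- and 0 in both High-Fli1+ libraries, had the largest endocrine change (log2 fold change -7.30). Others were named after their values were seen. Alternatives were other scalings, pseudocounts, filters and variance models, a replicate block, and leaving out each library. Promoter sequences were not used here. The values of 1 listed gene are not reported here.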

Additional observations from a re-analysis of the deposited data

How the results depend on the processing

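The counts of 1142 higher and 2366 lower genes stayed within 1.5 times under the other scalings, pseudocounts, filters and variance models, with array weights as the exception, at 1723 higher and 3789 lower. Leaving out 1 library gave 312 to 1666 higher and 412 to 3461 lower genes; each of the 4 libraries compared took both counts below the 1.5-fold range, and leaving out a Low-Fli1+ library did not. Of 336 called genes named or listed, 80 kept their call in every setting run and none changed direction. The same-numbered libraries of High-Fli1+ and Fli1- deviated together only weakly (r = 0.0787 across genes), and the labels do not say what a number shares, so the numbers were not taken as pairing; a fit with the replicate block called 1037 higher and 2094 lower, and 29 of the 336 calls were lost. FPKM without fragment counts limits what can be said of genes listed at 0, and 2 libraries per population limit every estimate of spread.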
